A study of Homo sapiens with 10 samples.

Results

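The genes described here are NFE2L2, which encodes the transcription factor NRF2, its inhibitor KEAP1, and 8 genes of the NRF2-linked antioxidant response, namely HMOX1, NQO1, TXNRD1, SRXN1, TXN, PRDX1, OSGIN1 and SQSTM1. Their IDs are ENSG00000116044 (NFE2L2), ENSG00000079999 (KEAP1), ENSG00000100292 (HMOX1), ENSG00000181019 (NQO1), ENSG00000198431 (TXNRD1), ENSG00000271303 (SRXN1), ENSG00000136810 (TXN), ENSG00000117450 (PRDX1), ENSG00000140961 (OSGIN1) and ENSG00000161011 (SQSTM1). They were chosen by function, with earlier results of these data known, and looked up by Ensembl gene ID. All 10 were found among the 20289 genes of the table. Ribosome footprints, the short pieces of mRNA that ribosomes shield from nuclease, were sequenced in 10 libraries of 2 established human cell lines of pancreatic ductal adenocarcinoma. The CFPAC-1 groups were 2 libraries with 0.1% DMSO, the solvent, and 2 with 10 µM IKE (imidazole ketone erastin). The PANC-1 groups were 2 libraries with 0.1% DMSO and 4 with 1 µM IKE. IKE is used to set off ferroptosis, in which iron feeds the peroxidation of membrane lipids until the cell dies. In all groups only cells that were still attached after dead cells and debris had been washed away were used, so the values describe survivors. The labels give 24 h of exposure, while the footprint protocol describes dosing over several days in a row, and which applies here was not resolved. Each line is a single line, no dose was common to both, and line and dose therefore cannot be told apart in any contrast of the IKE effects.

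KEAP1 is an adaptor of a CUL3 ubiquitin ligase that holds NRF2 in the cytoplasm and sends it for degradation. Electrophiles and oxidants modify cysteines of KEAP1, NRF2 then escapes degradation, enters the nucleus and, with small MAF proteins, binds antioxidant response elements near its target genes. Erastin and its derivatives block the cystine importer of the cell and so lower glutathione, and the NRF2 targets act on iron, quinones and protein thiols in the same oxidant defence. NRF2 itself is controlled largely at the level of its protein, which footprints do not measure. A footprint level reflects mRNA abundance and translation together, and with no matched RNA-seq used here these cannot be told apart, nor can fewer expressing cells and less RNA per cell.

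The core of the antioxidant response element, TGACNNNGC, was searched on both strands in the RefSeq promoter windows (build GRCh38.p14), each reaching from 250 bases before to 50 bases after a listed start site, and the matches are shown because these elements are where NRF2 acts. Windows were matched for 8 of the 10 genes (NFE2L2, KEAP1, NQO1, TXNRD1, SRXN1, TXN, OSGIN1 and SQSTM1), 13 windows in all. The core was found in 3 windows of 2 genes, KEAP1 and TXNRD1, against 16.1% of the 27305 genes and 13.3% of the 35116 windows in the table. Both KEAP1 matches were in the window chr19:10502722-10503021, whose start site lies inside the annotated span of the gene. The other KEAP1 window, chr19:10503307-10503606, has its start site at the end of that span and held no match. None of the 5 matches held the AP-1 letters TGACTCA or TGAGTCA, which can overlap the core. The capitals below mark the core or its reverse complement, read 5′ to 3′ on the strand of the gene, with the position of its first base relative to the start site in the name.
KEAP1, -54 (chr19:10502809-10502833, minus strand): ttttattgTGACACGGCgggcgccc
KEAP1, -31 (chr19:10502786-10502810, minus strand): ccggctctGCTTAGTCAtggtgacc
TXNRD1, -99 (chr12:104215672-104215696, plus strand): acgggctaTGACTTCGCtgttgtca
TXNRD1, -8 (chr12:104215763-104215787, plus strand): gtccttcgGCTCCGTCAgttcccac
TXNRD1, second start site, -102 (chr12:104286922-104286946, plus strand): ggatttctGCTTTGTCAttctgact
The whole stretch before the first TXNRD1 start site, chr12:104215529-104215778 on the plus strand, is shown with the match at -99 in capitals, as the surroundings of 1 such match.
TXNRD1 promoter: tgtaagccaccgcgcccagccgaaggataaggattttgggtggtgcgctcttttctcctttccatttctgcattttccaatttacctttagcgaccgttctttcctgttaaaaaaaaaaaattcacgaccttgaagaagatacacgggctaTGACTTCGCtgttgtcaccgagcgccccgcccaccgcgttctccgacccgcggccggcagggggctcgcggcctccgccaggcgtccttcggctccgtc
A match of letters is a description of the sequence and does not show binding. The absence of the core from the other windows says only that these letters are not within the window.

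Values are FPKM, fragments scaled to gene length and to the mapped fragments of the library. The length used for each gene is not given in the sources used here. An order or ratio of different genes therefore holds for these FPKM values and depends on those lengths. Depth relative to CFPAC-1 DMSO replicate 1, read from the steps of the lowest values, was 0.911 to 1.18 in the other CFPAC-1 libraries, 0.509 and 0.326 for PANC-1 with DMSO, and 0.874, 0.239, 0.502 and 0.211 for PANC-1 IKE replicates 1 to 4. The 10 most abundant genes of a library held 8.51% to 9.64% of its summed FPKM, except in PANC-1 IKE replicates 2 to 4, where they held 16.2%, 12.2% and 23.1%. On the log2 scale CFPAC-1 replicates had a median SD of 0.18, and PANC-1 replicates one of 0.481. The epithelial and other cell markers could not be checked, because the values are listed by Ensembl ID without names.

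The 10 genes covered a wide range of levels. PRDX1, a peroxiredoxin that reduces hydrogen peroxide, and NQO1, a quinone reductase, led in CFPAC-1 with DMSO at means of 1160 and 1120 FPKM, above 98.8% and 98.7% of the 13125 genes tested. The values of this pair lay within 1088 to 1169 FPKM, so their order is not a difference. TXN (thioredoxin, a small protein disulfide reductase) and SQSTM1 (p62, an autophagy receptor that also binds KEAP1) followed at 406 and 398 FPKM and overlapped each other. TXNRD1, the selenoprotein that reduces thioredoxin with NADPH, was at 99.3 FPKM and NFE2L2 at 66.9 FPKM, and these did not overlap each other or TXN and SQSTM1. KEAP1 and SRXN1, the sulfiredoxin that repairs overoxidised peroxiredoxins, were at 23.5 and 23.4 FPKM and overlapped. HMOX1, haem oxygenase 1, which breaks haem down to biliverdin, carbon monoxide and iron, was at 5.51 FPKM. It overlapped OSGIN1, an oxidative stress-induced growth inhibitor, at 5.08 FPKM. HMOX1 and OSGIN1 were thus above 24.0% and 22.6% of the tested genes.

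In PANC-1 with DMSO the order differed mainly by HMOX1 and NQO1. PRDX1 led at 1500 FPKM, ahead of SQSTM1 (823 FPKM), TXN (527 FPKM), NQO1 (395 FPKM), TXNRD1 (132 FPKM), HMOX1 (74.3 FPKM), NFE2L2 (59.2 FPKM), KEAP1 (37.0 FPKM), SRXN1 (23.4 FPKM) and OSGIN1 (6.61 FPKM). With 2 libraries each, neighbours in this order overlapped for SQSTM1 and TXN, for TXN and NQO1, and for KEAP1 and SRXN1. HMOX1 lay above both NFE2L2 values in both libraries. Together the 10 genes held 0.235% and 0.327% of summed FPKM in these libraries and 0.265% and 0.26% in the CFPAC-1 DMSO libraries.

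**Figure D1:**
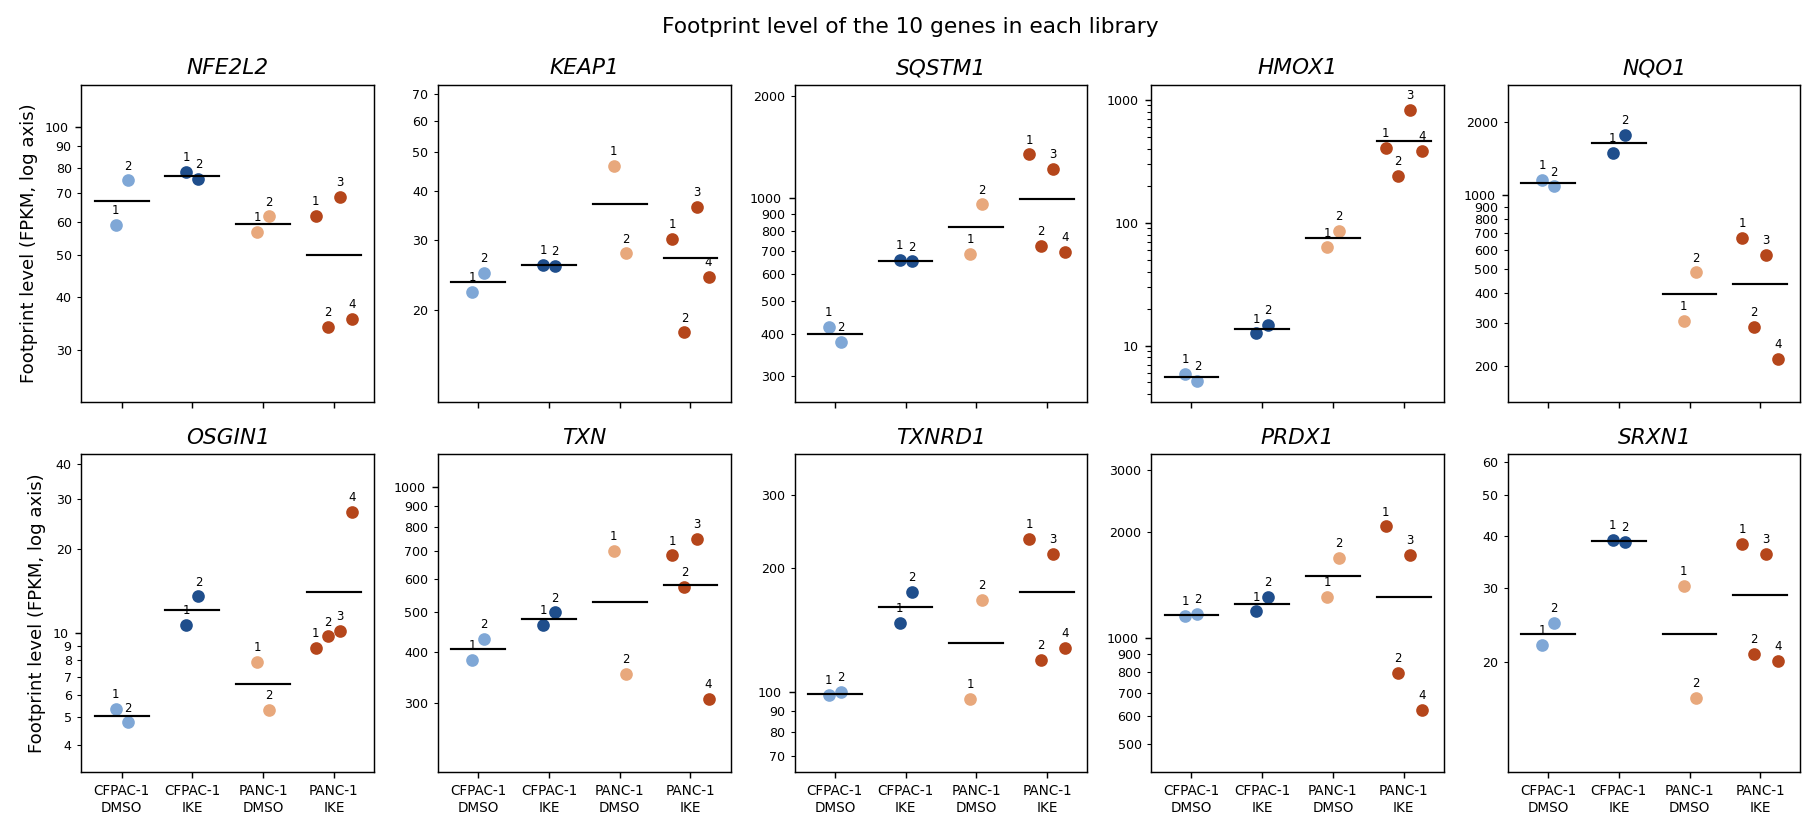
Footprint level (FPKM, log axis with its own range in each panel) of the 10 genes in every library, by line and treatment; points carry the replicate number and bars are group means. HMOX1 is highest in the 4 PANC-1 IKE libraries (239 to 826 FPKM), while NQO1 is higher in every CFPAC-1 library than in any PANC-1 library.

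The baseline comparison asked how the lines differed without IKE. It called 3 of the 10 genes (limma with 1 weight per line on log2(FPKM + 1), Benjamini-Hochberg adjusted p under 0.05), where 37.9% of all 13125 tested genes were called. Higher in PANC-1 were 2 of them (16.8% of all genes) and lower was 1 (21.1%), so the share called was near the background. For 5 of the 10 genes the ranges of the lines were separate, fewer than the 70.6% of all genes. HMOX1 was at 62.9 and 85.8 FPKM in PANC-1 against 5.85 and 5.18 FPKM in CFPAC-1, giving a log2 difference of 3.52 ± 0.39 (SE; adjusted p = 4e-05 by limma) or 11.4-fold. The groups lay far apart, and the call was kept in all 20 alternatives run. NQO1 went the other way, with 306 and 484 FPKM in PANC-1 and 1159 and 1088 FPKM in CFPAC-1, giving a log2 difference of -1.54 ± 0.40 (SE; adjusted p = 0.0113 by limma). SQSTM1 was at 686 and 960 FPKM in PANC-1 against 418 and 377 FPKM in CFPAC-1, giving a log2 difference of 1.03 ± 0.30 (SE; adjusted p = 0.0196 by limma). The call of NQO1 was lost without PANC-1 DMSO replicate 1 (adjusted p = 0.149). The call of SQSTM1 was lost without CFPAC-1 DMSO replicate 2 (0.0603) or PANC-1 DMSO replicate 2 (0.179) and with 1 spread for both lines (0.0513), and both calls were lost with the replicate block (0.103 and 0.108).

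As a result HMOX1 and NQO1 stood in very different proportion in the lines. The HMOX1 level divided by the NQO1 level, both per length, was 0.00505 and 0.00476 in the CFPAC-1 DMSO libraries and 0.205 and 0.177 in the PANC-1 DMSO libraries. With IKE it was 0.00839 and 0.00833 in CFPAC-1 and 0.61, 0.825, 1.45 and 1.8 in PANC-1 IKE replicates 1 to 4. The ratio was therefore higher with IKE than with DMSO in every library of each line. In PANC-1 IKE replicates 3 and 4 the FPKM of HMOX1 exceeded that of NQO1. Replicate 4, the shallowest library, had the highest ratio together with the lowest NQO1 level (214 FPKM). Its HMOX1 level (384 FPKM) was below that of replicate 1 (408 FPKM). These ratios are values of single libraries and were not tested.

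The other 7 genes were not called at baseline. NFE2L2 stood at 59.0 and 74.9 FPKM in CFPAC-1 against 56.7 and 61.7 FPKM in PANC-1, which overlapped, with a log2 difference of -0.16 (95% interval -0.88 to 0.55). KEAP1 stood at 22.2 and 24.8 FPKM in CFPAC-1 against 46.2 and 27.8 FPKM in PANC-1, higher in both PANC-1 libraries without passing the test (log2 difference 0.59 ± 0.32, SE; limma adjusted p = 0.177). The level of NFE2L2 over that of KEAP1 was 2.65 and 3.02 in CFPAC-1 with DMSO, 3.01 and 2.93 with IKE, and 1.23 to 2.22 over the 6 PANC-1 libraries. PRDX1, TXN, TXNRD1, SRXN1 and OSGIN1 had log2 differences from -0.06 to 0.36 with adjusted p from 0.434 to 0.913.

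In CFPAC-1 all 10 genes were higher in both IKE libraries than in both DMSO libraries, a pattern that 20.2% of the tested genes showed. The test called none of them at an adjusted p under 0.05, where it called 46 genes (0.35% of those tested), or 14, 28 and 24 without DMSO replicate 1, DMSO replicate 2 and IKE replicate 2. At an unadjusted p under 0.05, 6 of the 10 were higher (HMOX1, OSGIN1, SQSTM1, SRXN1, TXNRD1 and NQO1), against 5.97% of all genes. Fitted on CFPAC-1 by itself the count was 6 (6.02% of all genes). With no filter it was 5 (5.08%), NQO1 being lost. With 1 spread for both lines it was 2, HMOX1 and OSGIN1 (0.907%). The median log2 difference of the 10 was 0.61, with -0.011 over all tested genes. With 2 libraries against 2, an exact permutation test of a single gene cannot give a two-sided p below 0.333.

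NFE2L2 and KEAP1 were close to their controls. NFE2L2 was at 59.0 and 74.9 FPKM under DMSO against 78.3 and 75.5 FPKM under IKE, a log2 difference of 0.21 ± 0.19 (SE; adjusted p = 0.755 by limma). The IKE libraries sat just above the higher DMSO library. KEAP1 was at 22.2 and 24.8 FPKM under DMSO against 26.0 and 25.8 FPKM under IKE, a log2 difference of 0.14 (95% interval -0.28 to 0.55). SQSTM1 stood further apart, at 418 and 377 FPKM under DMSO against 659 and 652 FPKM under IKE. Its log2 difference of 0.72 ± 0.18 (SE) did not pass the threshold (adjusted p = 0.147 by limma), although both IKE libraries exceeded both DMSO libraries by a margin far above the gap between replicates.

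Among the 10 genes, HMOX1 and OSGIN1 had the widest relative gaps in CFPAC-1. HMOX1 was at 5.85 and 5.18 FPKM under DMSO against 12.5 and 14.7 FPKM under IKE, a ratio of means of 2.47. Its log2 difference was 1.17 ± 0.23 (SE; adjusted p = 0.0688 by limma), and 0.853% of the 13125 tested genes had a higher one. The gene passed the threshold in 5 of 21 alternatives, namely with a pseudocount of 0.1 (adjusted p = 0.0487), with the filter raised to a mean of 5 FPKM (0.0401), with quantile normalization (0.0487) and without PANC-1 IKE replicate 2 (0.0478) or 3 (0.0222); over all 21 its adjusted p ran from 0.0222 to 1. OSGIN1 was at 5.36 and 4.80 FPKM under DMSO against 10.7 and 13.5 FPKM under IKE, a log2 difference of 1.10 ± 0.25 (SE; adjusted p = 0.116 by limma). Both genes were low in every CFPAC-1 library, where the scale of log2(FPKM + 1) understates a change.

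NQO1, already abundant, was at 1159 and 1088 FPKM under DMSO against 1493 and 1769 FPKM under IKE. Its log2 difference was 0.53 (95% interval 0.02 to 1.05; limma adjusted p = 0.412). The IKE libraries lay above both DMSO libraries, but they differed from each other more than the DMSO libraries did. The log2 difference was 0.41 without IKE replicate 2 and 0.66 without IKE replicate 1. With IKE it had the highest mean of the 10 genes, 1630 FPKM against 1250 FPKM for PRDX1, where with DMSO it had been level with PRDX1.

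Within the thioredoxin system the reductase TXNRD1 and the repair enzyme SRXN1 had wider gaps in CFPAC-1 than the abundant proteins they act on. TXNRD1 was at 98.5 and 100.2 FPKM under DMSO against 147 and 176 FPKM under IKE (log2 difference 0.69 ± 0.19, SE; limma adjusted p = 0.197). SRXN1 was at 21.9 and 24.8 FPKM under DMSO against 39 and 38.7 FPKM under IKE (0.71 ± 0.20, SE; limma adjusted p = 0.197). TXN, the substrate of TXNRD1, was at 382 and 429 FPKM under DMSO against 465 and 498 FPKM under IKE (log2 difference 0.25, 95% interval -0.21 to 0.71). PRDX1, the substrate of SRXN1, was at 1156 and 1169 FPKM under DMSO against 1191 and 1307 FPKM under IKE (0.10, 95% interval -0.42 to 0.62). The TXNRD1 level over the TXN level was 0.258 and 0.233 with DMSO and 0.316 and 0.352 with IKE. Whether the effects of these genes differ from each other was not tested.

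**Figure D2:**
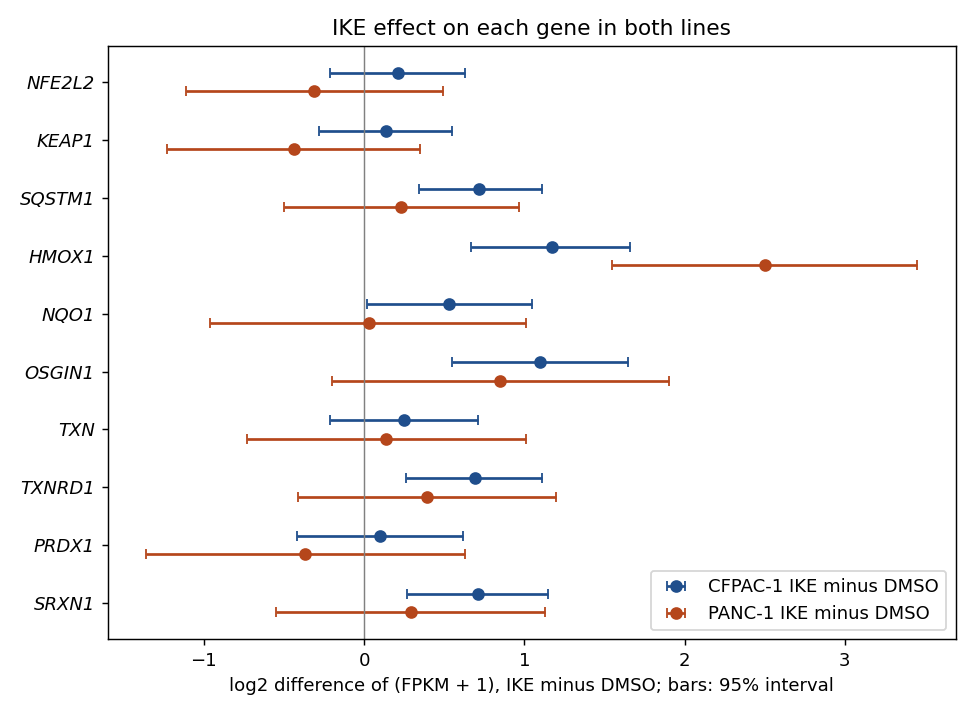
Log2 difference of (FPKM + 1) between IKE and DMSO for each gene in both lines, with 95% intervals. The intervals come from the limma model, which pools the spread of both lines with 1 weight per line. The vertical line is no difference. The intervals of HMOX1 exclude 0 in both lines, those of OSGIN1, SQSTM1, TXNRD1, SRXN1 and NQO1 in CFPAC-1 alone, and none of these differences passed the adjusted threshold.

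In PANC-1 the widest gap among the 10 genes was that of HMOX1. It was at 62.9 and 85.8 FPKM under DMSO against 408, 239, 826 and 384 FPKM in IKE replicates 1 to 4. All 4 IKE libraries were above both DMSO libraries, from 3.21 to 11.1 times the DMSO mean. The log2 difference was 2.50 ± 0.43 (SE; 95% interval 1.55 to 3.45), the third smallest p of 13125 genes, but it did not pass the threshold (adjusted p = 0.313 by limma). No gene of the 13125 did (0% called), while 1429 (10.9%) had an unadjusted p under 0.05, HMOX1 being the single one of these 10. Of the 10 log2 differences 7 were above 0, against 47.9% over all genes. The difference stayed between 2.07 and 2.97 in the alternatives, with adjusted p from 0.0762 to 1. An exact permutation test of a single gene with 2 libraries against 4 cannot give a two-sided p below 0.0667.

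**Figure D3:**
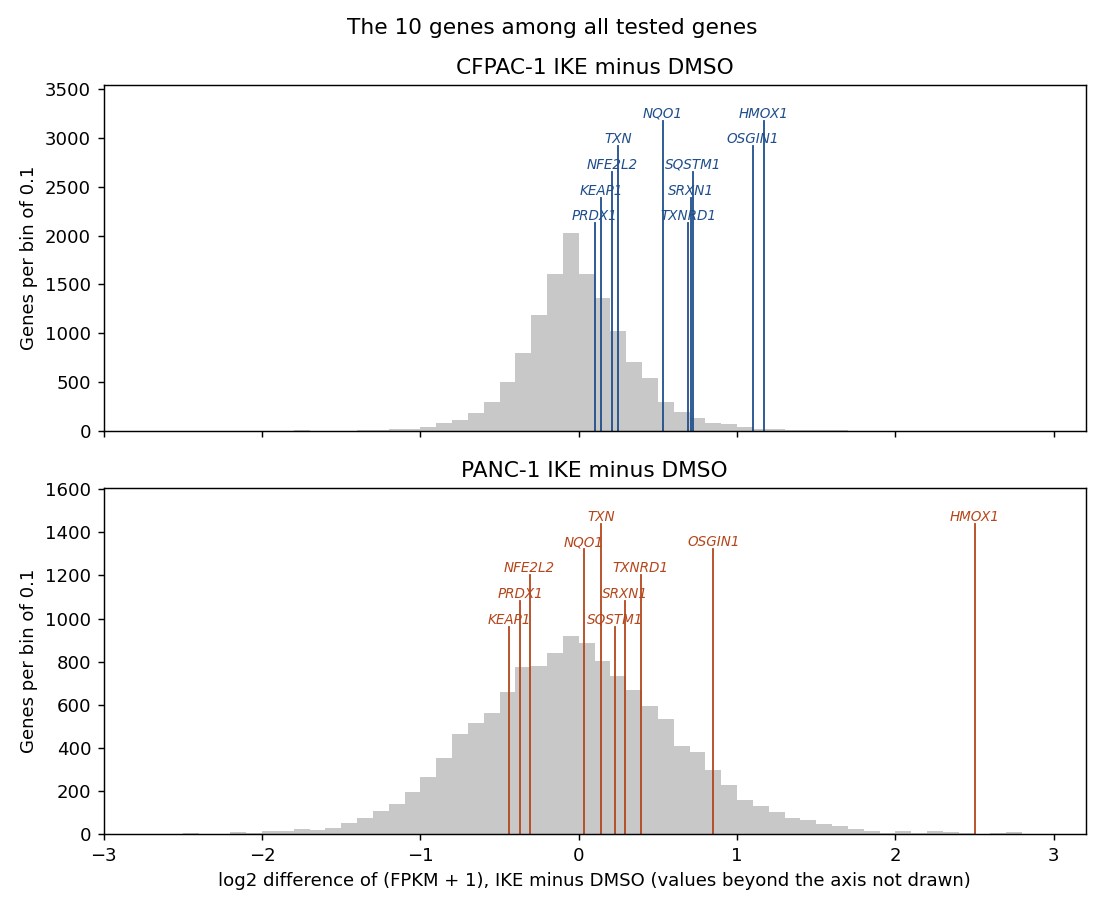
Number of tested genes per bin of 0.1 of the log2 difference between IKE and DMSO (grey) in CFPAC-1 (top) and PANC-1 (bottom), with the 10 genes marked by lines. In CFPAC-1 the 10 genes lie to the right of the median of all genes (-0.011), and in PANC-1 HMOX1 lies alone at 2.50 while the other 9 run from -0.44 to 0.85.

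OSGIN1 was the other gene with all 4 PANC-1 IKE libraries above both DMSO libraries, a pattern shown by 10.2% of the tested genes. None of the 10 had all 4 below both, as 12.2% of the tested genes did. It was at 7.88 and 5.33 FPKM under DMSO against 8.83, 9.73, 10.2 and 27.1 FPKM in IKE replicates 1 to 4. Replicate 4 stood far above the others, and the log2 difference of 0.85 ± 0.48 (SE; adjusted p = 0.529 by limma) was 0.50 without it.

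The remaining 8 genes overlapped between IKE and DMSO in PANC-1, and their IKE libraries fell into a common order. NQO1 was at 306 and 484 FPKM under DMSO against 669, 289, 570 and 214 FPKM in IKE replicates 1 to 4, so replicates 1 and 3 were above both DMSO libraries and replicates 2 and 4 below both. PRDX1 had the same order, with 1311 and 1691 FPKM under DMSO against 2076, 796, 1720 and 626 FPKM under IKE. NFE2L2 was at 56.7 and 61.7 FPKM under DMSO against 61.9, 34.0, 68.5 and 35.5 FPKM under IKE. For these genes the IKE replicates stood on both sides of the controls, so their mean differences (0.03, -0.37 and -0.31 on the log2 scale) describe no single library.

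KEAP1 was at 46.2 and 27.8 FPKM under DMSO against 30.2, 17.6, 36.4 and 24.3 FPKM in IKE replicates 1 to 4, with no IKE library above the higher DMSO library (log2 difference -0.44, 95% interval -1.23 to 0.35). SQSTM1 was at 686 and 960 FPKM under DMSO against 1346, 722, 1222 and 696 FPKM under IKE. TXNRD1 was at 96.4 and 168 FPKM under DMSO against 236, 120, 216 and 128 FPKM under IKE. Replicates 1 and 3 exceeded both controls for these last genes, and replicates 2 and 4 lay between them. SRXN1 showed that order too, at 30.3 and 16.4 FPKM under DMSO against 38.2, 20.9, 36.1 and 20.1 FPKM under IKE. TXN was at 701 and 353 FPKM with DMSO, the widest gap between the PANC-1 controls in FPKM after PRDX1, and at 684, 574, 750 and 308 FPKM under IKE. The log2 differences of SQSTM1, TXNRD1, SRXN1 and TXN ran from 0.14 to 0.39 with adjusted p from 0.711 to 0.925. The sign of several uncalled differences in PANC-1 rested on 1 library. Without DMSO replicate 1 the log2 difference was -0.01 for SQSTM1 and 0 for TXNRD1, and without DMSO replicate 2 it was -0.13 for SRXN1. That of TXN was -0.35 without DMSO replicate 2 and -0.01 without IKE replicate 3, and that of NQO1 was -0.30 without DMSO replicate 1, -0.23 without IKE replicate 1 and -0.15 without IKE replicate 3.

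In all, IKE replicates 1 and 3 were both above replicates 2 and 4 for 9 of the 10 genes, OSGIN1 being the exception. Over all tested genes 25.3% had that order and 18.8% the opposite one, and among those with a mean of at least 100 FPKM in these libraries the shares were 38.2% and 17.4%. The mean log2 gap between the pairs was 0.66 to 1.42 for the 9 genes. Its median was 0.05 over all genes and 0.2 over those with a mean of at least 100 FPKM. Replicates 2 and 4 were the shallowest libraries (0.239 and 0.211, against 0.874 and 0.502), and 16.2% and 23.1% of their summed FPKM lay in 10 genes. The part of depth and of these abundant genes in the order was not tested. Scaling each library to the median gene left the PANC-1 direction of all 10 genes as it was, with a median of 0.22 against 0.19.

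Replicates 2 and 4 were the lowest IKE libraries for those 9 genes, so leaving them out raises the mean of these genes by construction, and the values without them are a description, not a test of the IKE effect. The log2 differences were then 2.97 for HMOX1, 0.82 for TXNRD1, 0.71 for SRXN1, 0.68 for NQO1, 0.66 for SQSTM1, 0.52 for TXN, 0.48 for OSGIN1, 0.34 for PRDX1, 0.14 for NFE2L2 and -0.11 for KEAP1. None passed the threshold (limma adjusted p from 0.302 to 0.965). NFE2L2 and PRDX1, below 0 with all libraries, were above 0 in this fit.

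**Figure D4:**
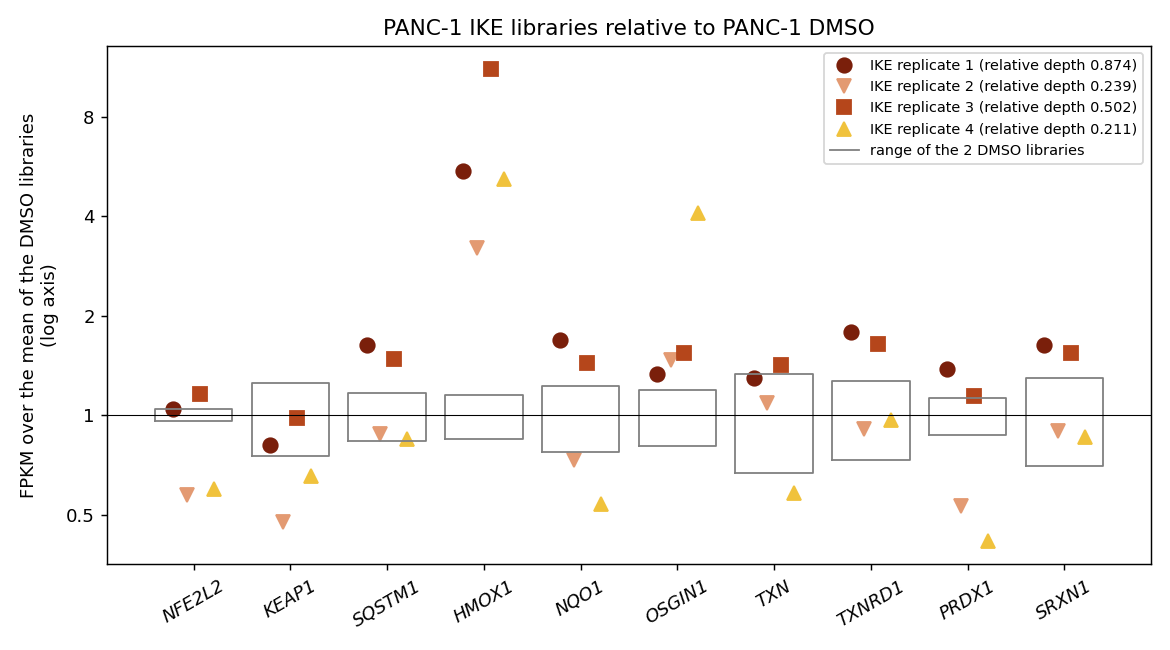
FPKM in each of the 4 PANC-1 IKE libraries divided by the mean of the 2 PANC-1 DMSO libraries (log axis), with grey boxes for the range of the DMSO libraries and relative depth in the legend. HMOX1 is 3.21 to 11.1 times the DMSO mean, and for every gene but OSGIN1 replicates 1 and 3 lie above replicates 2 and 4.

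The IKE effects of the lines were compared by the difference of the log2 differences, PANC-1 minus CFPAC-1. None of the 10 genes was called, where 3 of 13125 (0.0229%) were, and 1640 genes (12.5%), HMOX1 among them, had an unadjusted p under 0.05. For HMOX1 the difference was 1.33 ± 0.49 (SE; 95% interval 0.26 to 2.40; limma adjusted p = 0.325), from 1.17 in CFPAC-1 with 10 µM IKE to 2.50 in PANC-1 with 1 µM. The other 9 genes all had a smaller estimate in PANC-1, where 49.3% of all genes had a larger one, from -0.58 for KEAP1 to -0.11 for TXN, with intervals that included 0. That direction was not kept throughout: without PANC-1 IKE replicates 2 and 4 the difference was 0.28 for TXN, 0.24 for PRDX1, 0.15 for NQO1, 0.14 for TXNRD1 and 0 for SRXN1. For TXN it stayed below 0 in 14 of 20 alternatives. For SQSTM1 the difference was -0.49 (95% interval -1.32 to 0.34) and for NQO1 -0.51 (95% interval -1.62 to 0.61). The PANC-1 spread leaves these intervals wide, so neither a like nor an unlike response of the lines is shown for these genes.

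Likeness of pattern was measured by Pearson correlation of log2(FPKM + 1) over the 10 libraries, after each line had been centred on its own mean, as a description of libraries that share treatment, depth and composition. The lines were not scaled to a like spread. PANC-1 had more libraries and a larger SD (for NQO1 0.716 against 0.131 in CFPAC-1), so its libraries weigh most in these values. NQO1 was most like SQSTM1 among the other 9 genes (r = 0.91), which ranked 20th of the 13124 other tested genes, with PRDX1 (0.90) and TXNRD1 (0.87) next. NFE2L2 was most like PRDX1 (0.91, rank 38), followed by NQO1 (0.80) and KEAP1 (0.75). HMOX1 had no close partner in the group. Its highest value was with TXNRD1 (0.69, rank 485), then SQSTM1 (0.60) and OSGIN1 (0.59), while its values with NFE2L2 and KEAP1 were 0.04 and -0.16. Genes outside the group that were more alike are not named, since their IDs are paired with no name here.

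By the RefSeq annotation of GRCh38.p14 the genes lie on 9 chromosomes, HMOX1 at chr22:35381096-35394207, NQO1 at chr16:69709401-69726560 and NFE2L2 at chr2:177230303-177264727. NQO1 and OSGIN1 share chromosome 16 but lie far apart. The annotated spans of NQO1 and TXNRD1 overlap an antisense gene each (NQO1-AS1 and TXNRD1-AS1), and those of PRDX1, OSGIN1, TXNRD1 and SQSTM1 overlap other protein-coding genes. Whether the authors' counting used strand is not given in the sources used here, and reads from overlapping genes cannot be told apart, and processed copies of such abundant genes can likewise take or lend reads.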

How the data were processed

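Per the file headers, the authors deposited 1 FPKM value per gene and library. Tools listed in the submitters' processing notes, without role or order, are STAR, RSEM, fastp, DESeq2 and Bowtie2 2.2.8, and the build is GRCh38. Annotation and strand setting: not given in the sources used here. No result of the authors' own tests was used. All 10 columns were matched by name, and none was pooled. The labels call the replicates biological but name no separate cultures. The p-values therefore measure the spread between these libraries, pooled in the main fit over both lines with 1 weight per line.

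Genes whose mean reached 1 FPKM (13125 of 20289, all 10 described genes among them) were tested with limma 3.58.1 in R 4.3.3 on log2(FPKM + 1), 4 groups in 1 model (6 residual degrees of freedom), arrayWeights with 1 weight per line because PANC-1 was noisier, and a mean-variance trend. The code was tested on simulated data. One weight per line assumes that the lines' spreads stand in 1 ratio for all genes; where this was not so in the simulated data, CFPAC-1 p-values were too small. Alternatives changed the weights, pseudocount, filter, scaling, pairing and libraries.

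The rule named all 10 genes. They, the lists and the tests were chosen with earlier results of these data known. Other pathway lists and cell markers could not be tested, since the IDs are paired with no names; the names of the 10 genes came with their selection. FPKM steps gave relative depth, read from the strongest peak of the ratios to the reference library. The ratios of 2581 to 3537 low genes were searched, and the peak held 35 to 157 of them. Absolute depth is unknown, so no counting interval is given.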

Additional observations from a re-analysis of the deposited data

Results flagged for a closer look

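OSGIN1 in PANC-1 with IKE was singled out because 1 library lay far from the others. Replicate 4 was at 27.1 FPKM, against 8.83, 9.73 and 10.2 FPKM in replicates 1 to 3, and the gap to the nearest library was 0.925 of the whole range. The check was run on each of the 10 genes in this group, the only one with 4 libraries, and flagged 1. Chance alone flags about 1 in 20 for a single gene, and the 10 genes share the same libraries. Replicate 4 was also the shallowest library (relative depth 0.211), with 23.1% of its summed FPKM in 10 genes. Their part in the value was not tested.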

How the results depend on the processing

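Of the 10 genes, the count called in CFPAC-1 with IKE was 0, and 1 (HMOX1) with a pseudocount of 0.1, with a mean of at least 5 FPKM or with quantile normalization; leaving out single libraries gave 0 to 1. At baseline the count was 3, 1 with the replicate block and 2 to 3 without single libraries. In PANC-1 and for the difference of the effects it was 0 in every alternative run. Calls over all genes in CFPAC-1 were 46, and 1 with 1 spread for both lines, 77 with a pseudocount of 5, 8 with the replicate block, 28 without PANC-1 IKE replicates 2 and 4, 16 in the fit of CFPAC-1 alone and 14 to 44 without single libraries. For PANC-1 they were 0, and 2 with 1 spread or in the fit of PANC-1 alone, and 1 with no filter or without replicates 2 and 4. For the difference they were 3, 0 with the block and 0 to 6 without single libraries. For the baseline they were 4970, 2340 with the block and 2868 to 5606 without single libraries. The cause of these changes was not tested. The replicate numbers share only a number: same-numbered libraries deviated together with correlations of 0.05 in CFPAC-1 and -0.17 and -0.16 in PANC-1, so the block on replicates 1 and 2 is given as an alternative. Where a group kept 1 library, it was assumed to vary like the others. No call of the 10 genes changed direction. The shallowest libraries were PANC-1 IKE replicates 2 and 4, at 0.239 and 0.211 of the reference depth; the part of depth in the PANC-1 spread was not tested.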
